A study of Homo sapiens with 8 samples.

Results

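Clusters outside annotated genes are the small part of the LARP6 eCLIP signal whose midpoint lay in no RefSeq gene of GRCh38, of any biotype and on either strand. Of 178461 regions in 4 cluster lists, 1 per immunoprecipitated library, and 2 lists of reproducible peaks, 1323 met this rule. LARP6 was immunoprecipitated from human hepatic stellate cells, which lay down collagen in the injured liver, with 2 libraries and 2 size-matched inputs per condition, 8 samples in all. All cells were wild type and cultured in medium with serum. The TGFβ1 group received 5 ng/ml of TGFβ1, a cytokine that activates these cells, and the control group is named both untreated and DMSO in its labels. Its vehicle is therefore uncertain. The labels name the cells as a line without saying which, and do not state whether replicates are separate cultures. The replicate spread may therefore be technical.

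LARP6, of the La-related family of RNA-binding proteins, is best known for binding a stem-loop near the start of fibrillar collagen mRNAs. In eCLIP, ultraviolet light fixes RNA to protein, the complexes are recovered by antibody, and reads pile up as clusters where the protein sat. Gene models record known transcripts, and cells also make RNA beyond them: transcripts that run on past a gene's end, RNAs that start ahead of the annotated start, and long unannotated noncoding RNAs.

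Places just ahead of annotated gene starts recur in the results below, and 5 of them are shown here because the RefSeq promoter table (GRCh38.p14) holds their bases. A place is a set of outside clusters of any library that overlapped or lay at most 20 nt apart on 1 strand. GFPT1, which encodes the first enzyme of the hexosamine pathway, had the upstream place that reached a reproducible list. Those of HNRNPM (an hnRNP protein), NCAPD2 (a condensin subunit), PTPN14 (a tyrosine phosphatase) and EMP3 (a membrane protein) had tested clusters in all 4 libraries. Each line gives the bases of the place that lie outside the gene and inside the window, on the strand of the gene and 5′ to 3′, in lower case since no part is singled out.
GFPT1, chr2:69387228-69387249, minus strand: ctggcggagcccgggaggcgga
HNRNPM, chr19:8444916-8444974, plus strand: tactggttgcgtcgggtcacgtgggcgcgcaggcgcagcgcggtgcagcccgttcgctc
NCAPD2, chr12:6493852-6493939, plus strand: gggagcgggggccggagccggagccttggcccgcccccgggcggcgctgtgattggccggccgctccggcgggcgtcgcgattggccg
PTPN14, chr1:214551676-214551789, minus strand: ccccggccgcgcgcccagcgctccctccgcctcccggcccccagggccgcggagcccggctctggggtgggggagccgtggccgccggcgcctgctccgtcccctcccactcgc
EMP3, chr19:48325393-48325551, plus strand: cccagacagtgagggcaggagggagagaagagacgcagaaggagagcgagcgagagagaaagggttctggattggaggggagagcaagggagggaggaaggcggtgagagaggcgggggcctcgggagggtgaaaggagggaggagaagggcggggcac

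These upstream sequences were rich in G and C. GC content was 81.8% at GFPT1, 72.9% at HNRNPM, 83.0% at NCAPD2, 85.1% at PTPN14 and 64.8% at EMP3. Over all 13 upstream places that were tested in at least 3 libraries and could be read from the table, the median was 78.7% (range 41.3% to 93.5%). Their own 300-base windows had a median of 72.3%. The median over all 34935 promoter windows was 58.7%. In 13 of 13 the bases under the clusters were richer in GC than the window around them, which is a description of these places and was given no test.

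Few clusters lay outside genes, and the share was higher in both control libraries than in either TGFβ1 library. Control replicates 1 and 2 had 555 of 51273 tested clusters outside (1.08%, 95% Wilson interval 0.996 to 1.18) and 276 of 39880 (0.692%, 0.615 to 0.778). TGFβ1 replicates 1 and 2 had 155 of 31137 (0.498%, 0.426 to 0.582) and 315 of 54536 (0.578%, 0.517 to 0.645). Sequence between genes makes up 45.6% of the assembly from the first to the last gene of each chromosome. The means were 0.887% ± 0.276 in control and 0.538% ± 0.056 in TGFβ1 (SD, n = 2), with no overlap between the groups. The difference of -0.350 percentage points gave p = 0.333 by a two-sided exact permutation test, which is the smallest p that 2 libraries against 2 allow. Without control replicate 1 the difference was -0.15 points. The gap was uneven over the genome. Chromosome 16 held 86 and 23 outside clusters in control and 6 and 11 in TGFβ1, and chromosome 4 held 35 and 25 against 4 and 4. Chromosome X went the other way, with 6 and 4 against 6 and 13. Long stretches found in control alone, described below, held 130 of the 555 and 55 of the 276 control clusters. TGFβ1 replicate 2 had the most tested clusters of all and TGFβ1 replicate 1 the fewest, and what this means for the share was not tested. The intervals cover counting error only, and because the lists hold no read counts, the read depth is unknown.

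Outside clusters mostly lay close to genes, and those of the TGFβ1 libraries lay closer. The median distance from the midpoint to the nearest gene end was 3752 nt and 3576 nt in control replicates 1 and 2, and 1229 nt and 1537 nt in TGFβ1 replicates 1 and 2. Within 5 kb of a gene lay 56.6% and 56.5% of outside clusters in control, beside 74.8% and 72.4% in TGFβ1. The groups did not overlap and differed by 17.1 percentage points (two-sided exact permutation test, p = 0.333, the smallest possible). Remote clusters showed the wider gap between conditions. Clusters more than 5 kb from every gene made up 0.470% and 0.301% of all tested clusters in control and 0.125% and 0.160% in TGFβ1. Clusters nearer than that made up 0.612% and 0.391% in control against 0.373% and 0.418% in TGFβ1, where the groups overlapped. The farthest outside cluster of each library lay at least 118094 nt from a gene.

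**Figure D1:**
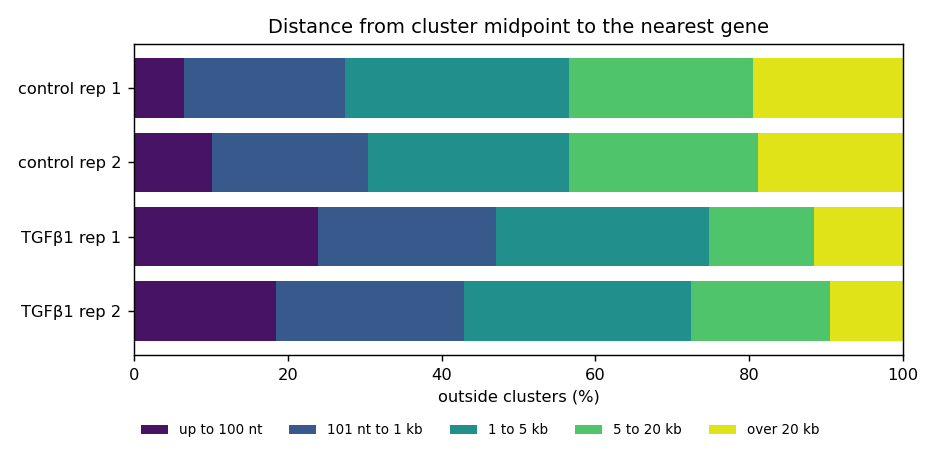
Distance from the midpoint of each outside cluster to the nearest gene, as percent of the outside clusters of each library (horizontal axis, 4 bars, 5 distance classes by colour). The first 3 classes, up to 5 kb, end at 56.6% and 56.5% in control and at 74.8% and 72.4% in TGFβ1.

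Most outside clusters near a gene lay on its strand. Where the strand of the nearest gene was known, 476 of 645 clusters within 5 kb were on that strand (73.8%), against 180 of 309 farther away (58.3%). On the gene's own strand, 343 clusters lay on the 3′ side at a median of 3146 nt, and 313 lay on the 5′ side at a median of 227 nt. Same-strand clusters on the 5′ side made up 19.1% and 22.8% of outside clusters in control replicates 1 and 2 and 35.5% and 28.3% in TGFβ1 replicates 1 and 2. Their counts were 106 and 63 among 51273 and 39880 tested clusters in control. In TGFβ1 they were 55 and 89 among 31137 and 54536, so the counts overlapped. The percentages are of outside clusters alone, which held fewer remote clusters in TGFβ1, and do not show more upstream clusters among all those tested. The nearest gene was protein-coding for 682 of the 1301 outside clusters of the 4 libraries (52.4%), a lncRNA for 360, and a pseudogene for 155. Protein-coding genes are 33.6% of the gene table. The nearest gene itself had a tested cluster of the same library for 52.6% to 61.8% of outside clusters within 5 kb. Beyond 5 kb the figure was 39.4% and 33.3% in control and 10.3% and 20.7% in TGFβ1.

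A cluster was called enriched where both its deposited log2 fold over input and its deposited −log10 p reached 3. By this rule 7 and 13 outside clusters were enriched in control replicates 1 and 2, and 12 and 26 in TGFβ1 replicates 1 and 2. As shares of the outside clusters these came to 1.26% and 4.71% in control, with 95% Wilson intervals of 0.612 to 2.58 and of 2.77 to 7.89. In TGFβ1 they came to 7.74% and 8.25%, with intervals of 4.48 to 13.0 and of 5.69 to 11.8. Among all tested clusters the rule called 1.21%, 2.09%, 2.69% and 3.64% in the same libraries, and 2.42% over all 4. The share was higher outside than inside genes in 4 of 4 libraries. The difference ranged from 0.053 points in control replicate 1 to 5.08 points in TGFβ1 replicate 1, with a mean of 3.10 ± 2.29 points (SD, n = 4; two-sided exact sign-flip permutation test, p = 0.125, the smallest possible). The TGFβ1 libraries exceeded the control libraries by 5.01 points in this share (exact permutation test, p = 0.333), and by 3.29 points without control replicate 1. Deposited folds were offset between libraries. The most frequent log2 fold was 0.38 and 0.85 in control and 1.20 and 1.31 in TGFβ1, so the fixed limit lay nearer to it in TGFβ1. What this offset adds to differences between conditions, here and at the single places below, was not tested.

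The enriched outside clusters fell into 4, 8, 6 and 13 places of the 4 libraries, out of 539, 264, 137 and 269 places. With places in place of outside clusters as the unit, the mean difference from the inside share was 1.65 points and that between conditions 2.72 points. At a log2 fold limit of 4, with clusters as the unit, they were 1.5 and 2.96 points. When clusters of the reproducible lists were left out both outside and inside genes, the share was 0.63 points higher outside (two-sided exact sign-flip permutation test, p = 0.375). By distance, 17 of 159 clusters within 100 nt of a gene were enriched (10.7%) and 20 of 208 more than 20 kb away (9.62%). In the 3 classes between them 3 of 285, 12 of 370 and 6 of 279 were enriched. The enriched clusters within 100 nt all lay at places near LOC105372321, TRU-TCA1-1, GFPT1 and TRR-ACG2-1, described below. Those beyond 20 kb all lay at places nearest to RNU2-3P, UFM1P1, RPL17P14 and VMA21. Clusters of 1 place are not independent, so these shares describe the lists and were given no test.

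**Figure D2:**
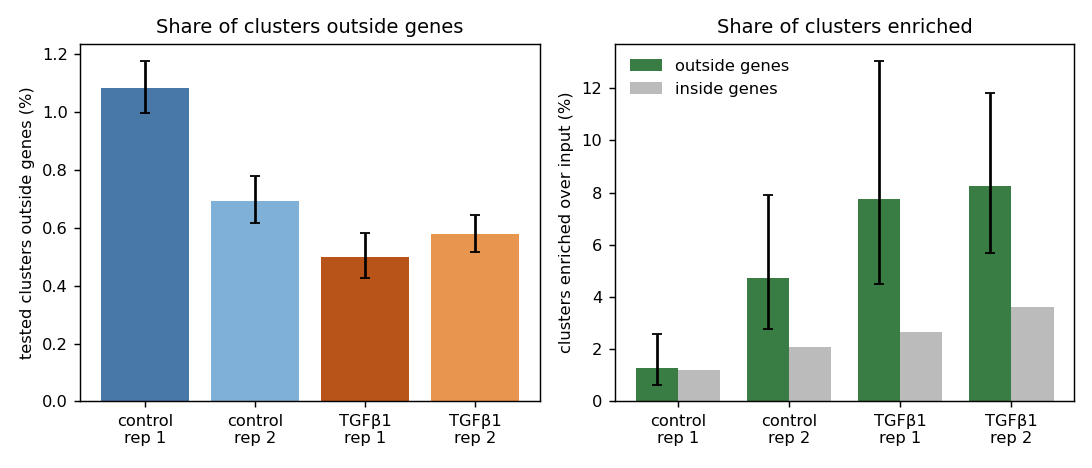
Left: percent of tested clusters whose midpoint lies outside genes, per library, with 95% Wilson intervals as error bars. Right: percent of clusters enriched over input outside genes (green, with 95% Wilson intervals) and inside genes (grey), where outside clusters have the higher bar in each library and control replicate 1 the smallest gap.

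Most outside places were found in 1 library. The 1301 clusters formed 977 places, and 829 of them (84.9%) had a tested cluster in 1 library, 92 in 2, 28 in 3 and 28 in all 4. None of the 829 was enriched. That would allow a share of up to 0.362% if the places were independent, which neighbouring places of 1 stretch may not be. Of the 92, 28 and 28 places, 3, 2 and 11 were enriched in at least 1 library. More libraries give more chances to be enriched, and the median fold also differed: the mean of a place's highest log2 folds had a median of 0.79, 0.94, 1.26 and 1.89 in the 4 classes. Between replicates, 79 places were shared in control (14.7% of replicate 1 and 29.9% of replicate 2) and 60 in TGFβ1 (43.8% and 22.3%). Between conditions 42 to 59 were shared. In all, 16 places were enriched in any library, 8 in at least 2, and 3 in all 4.

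**Figure D3:**
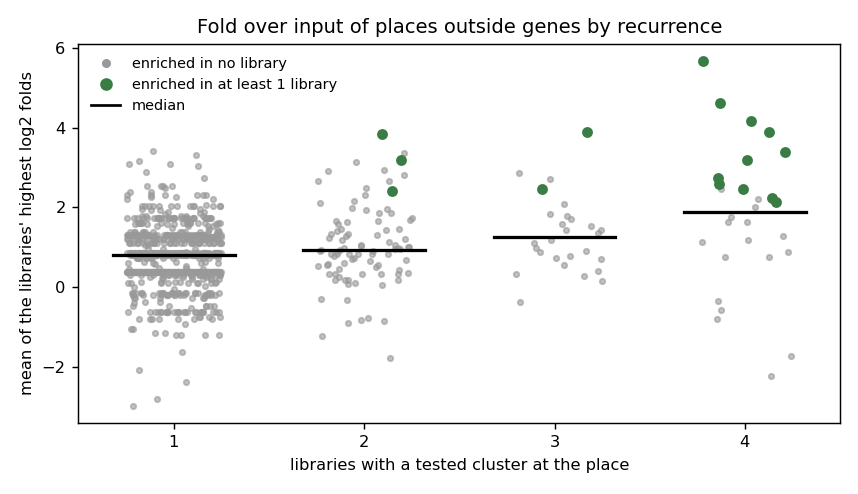
Each point is 1 outside place. The horizontal axis is the number of libraries with a tested cluster there and the vertical axis the mean of those libraries' highest log2 folds over input, with bars at the medians of 0.79, 0.94, 1.26 and 1.89. Enriched places (green) lie among those tested in 2 or more libraries.

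The authors' lists of reproducible peaks held 7 outside regions in control (1.12% of 627) and 15 in TGFβ1 (1.49% of 1008). They formed 4 and 7 places, and the 4 control places were all in the TGFβ1 list too. Their listed log2 folds ranged from 3.73 to 4.91 in control, with a median of 4.25 beside 4.19 for the whole list. In TGFβ1 they ranged from 3.54 to 6.62, with a median of 4.37 beside 4.44. The highest folds of both whole lists, 9.17 and 9.49, were not outside genes. All regions of both lists passed the fold and p limits, so these folds are a description.

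The listed place with the highest mean fold over the libraries lay beyond POMK, the gene of a kinase that phosphorylates O-mannose on dystroglycan. It spanned chr8:43127784-43127989 on the plus strand, the strand of POMK, with its nearest midpoint 4378 nt past the annotated 3′ end. Its highest log2 folds were 4.65 and 5.09 in control replicates 1 and 2 and 5.98 and 6.92 in TGFβ1 replicates 1 and 2. All 4 libraries were enriched and the TGFβ1 values were the higher ones, at 6.45 ± 0.67 against 4.87 ± 0.31 (SD, n = 2). The TGFβ1 list held 3 regions here, at 6.62, 6.27 and 4.37, and the control list 1, at 4.91. POMK itself had 0 and 0 tested clusters in control and 1 and 2 in TGFβ1. A further place, chr8:43128593-43128636 at 5181 nt past the gene, was enriched in TGFβ1 replicate 2 (3.97) and tested at 0.85 in control replicate 2.

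Another pair of listed places was enriched in all 4 libraries. One, chr15:95784676-95784728 on the plus strand, lay 38690 nt from RNU2-3P, a pseudogene of U2 small nuclear RNA and its nearest gene. Its log2 folds were 3.11 and 6.06 in control and 4.20 and 3.25 in TGFβ1, with −log10 p of 16.1, 41.6, 28.1 and 45.04. Control replicate 2 stood above the other libraries, and the groups overlapped. The other, chr19:21440633-21440663 on the plus strand, lay 38 nt from the 3′ end of the lncRNA LOC105372321 and on the opposite strand. It had 3.44 and 5.06 in control and 3.12 and 3.96 in TGFβ1, which overlapped too. LOC105372321 had no tested cluster of its own in any library.

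The fourth place of both lists touched TRU-TCA1-1, the gene of the selenocysteine tRNA. It spanned chr19:45478594-45478603 on the minus strand, at the 3′ end of the tRNA gene, and its nearest midpoint lay 1 nt outside. Clusters with their midpoint outside had 3.92 in control replicate 2 and 3.75 in TGFβ1 replicate 2. In control replicate 1 and TGFβ1 replicate 1 a cluster crossed the same bases with its midpoint inside the gene, at 3.93 and 4.09. All 4 libraries were thus enriched over these bases, and whether the place counts as outside depends on where the clusters were split.

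The remaining 3 places were in the TGFβ1 list alone. The first, chr11:62252198-62252222 on the minus strand, lay 7390 nt from the 3′ end of SCGB1D2, a secretoglobin gene, on the opposite strand. Its log2 folds were 2.88 and 4.99 in control and 4.62 and 5.93 in TGFβ1, so control replicate 2 was enriched as well. Control replicate 1 missed both limits, with a −log10 p of 1.70. The second, chrX:145731485-145731512 on the minus strand, lay 36520 nt from UFM1P1, a pseudogene. It had 1.21 and 0.35 in control and 3.01 and 6.38 in TGFβ1. The groups did not overlap, with 0.78 ± 0.61 against 4.70 ± 2.38 (SD, n = 2), and TGFβ1 replicate 1 lay at the limit. Being in the TGFβ1 list alone favours higher TGFβ1 values at such places, and no test was made of single places.

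The third was the GFPT1 place shown above, chr2:69387220-69387249, which crossed the annotated 5′ end of the gene. Clusters with their midpoint outside had 2.17 in control replicate 2 and 4.71 and 4.81 in TGFβ1 replicates 1 and 2. Counting any cluster that overlapped these bases, the values were 1.79 and 4.12 in control and 4.71 and 7.62 in TGFβ1. Control replicate 2 was therefore enriched in a cluster just inside the gene, and control replicate 1 was not. GFPT1 had 8 and 7 tested clusters of its own in control and 13 and 26 in TGFβ1. As a share of the tested clusters of each library these were 0.0156% and 0.0176% against 0.0418% and 0.0477%.

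**Figure D4:**
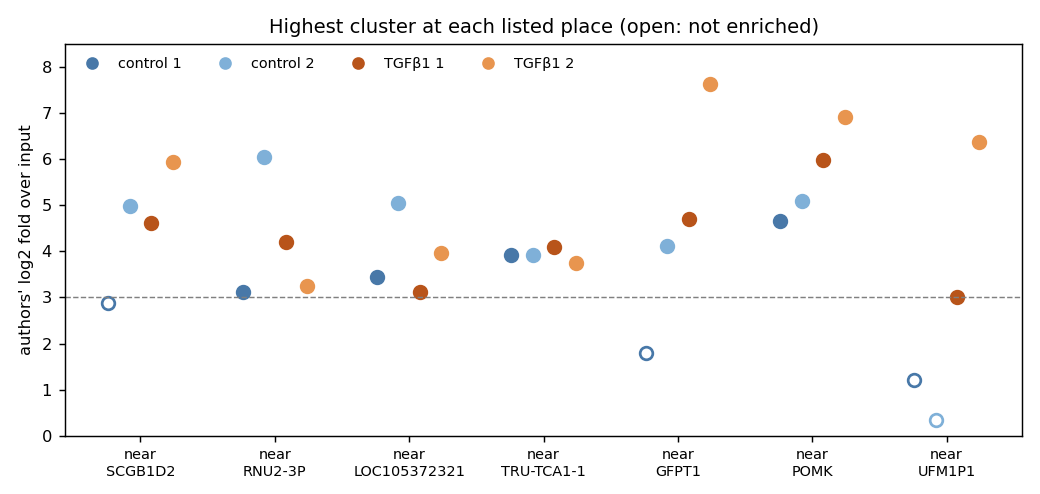
Authors' log2 fold over input (vertical axis) of the highest cluster that overlaps each of the 7 listed places, 1 point per library, wherever its midpoint lies; open points are not enriched and the dashed line is the fold limit of 3. Places near RNU2-3P, LOC105372321, TRU-TCA1-1 and POMK are enriched in all 4 libraries, and at UFM1P1 both control points, 1.21 and 0.35, lie below both TGFβ1 points.

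Of the places outside both reproducible lists, 1 was enriched in 2 libraries. It lay on chr2:228913030-228913062, minus strand, 90833 nt from the ribosomal protein pseudogene RPL17P14. Its log2 folds were 2.70 and 3.10 in control and 3.20 and 4.58 in TGFβ1, with at least 1 limit missed in replicate 1 of both conditions. The other 7 of the 8 highest such places were enriched in 1 library each. A pair lay 473 and 836 nt from the lncRNA FAM87B on chr1:820269-820389 and chr1:820641-820726. The farther one had 3.6 and 2.85 in control and 2.79 and 3.53 in TGFβ1, all near the limit. At the nearer one control replicates had 2.60 and 3.78, with no tested cluster in the TGFβ1 libraries. TRR-ACG2-1, an arginine tRNA gene, had a place 3 nt beyond its 3′ end with 2.95 and 3.03 in control and 2.27 and 2.06 in TGFβ1. Its −log10 p was between 60.2 and 400 in all 4 libraries, and control replicate 2 alone passed the fold limit.

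TGFβ1 replicate 2 was the enriched library at the other 4 of these places, the further POMK place among them. On the 5′ side of VMA21, which encodes an assembly factor of the vacuolar proton pump, a place 50238 nt away on the opposite strand had 0.26 in control replicate 2 and 3.43 and 3.72 in TGFβ1, with no cluster tested in control replicate 1. At MRPL30, a mitochondrial ribosomal protein gene, a place 2107 nt past the 3′ end had 1.79 and 1.58 in control and 2.62 and 3.81 in TGFβ1. At SEC16B, a gene of endoplasmic reticulum exit sites, a place 1525 nt past the 3′ end had 0.38 and 1.85 against 2.62 and 4.12. In each of these 3 the TGFβ1 values exceeded the control values, and TGFβ1 replicate 2 alone passed both limits. Each was named because it was enriched in a library, here TGFβ1 replicate 2, so higher TGFβ1 values there are favoured by the choice.

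Recurrence did not mean enrichment. Of the 28 places tested in all 4 libraries, 17 were enriched in none, and the lowest had less signal than input throughout. A place 859 nt past TAF13, which encodes a TFIID subunit, had log2 folds of -1.79 and -2.32 in control and -2.91 and -1.86 in TGFβ1. At chr4:157768010-157768058, 35392 nt from the lncRNA LOC105377509, the values were -2.21 and -1.45 against -1.97 and -1.23. A place on chromosome 2 near LOC100271832 ranged from -0.96 to -0.67. One on chromosome 20 near RPL7AP13 had 0.12 and -0.06 in control and -1.38 and -0.99 in TGFβ1. No gene was the nearest one of more than 1 place tested in all 4 libraries.

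Places on the 5′ side of genes and on their strand mostly had modest folds in all 4 libraries where they recurred. At PTPN14, whose sequence is given above, the log2 folds were 1.38 and 1.26 in control and 1.94 and 3.97 in TGFβ1, the last of them enriched. At NCAPD2 they were 1.49 and 2.35 against 1.43 and 3.53, and at HNRNPM 0.38 and 1.85 against 1.62 and 3.18. At EMP3 they were 0.79 and 2.53 against 1.00 and 0.17, and at ERO1A, which encodes a disulfide oxidase of the endoplasmic reticulum, 1.12 and 2.72 against 0.94 and 1.72. Control and TGFβ1 values overlapped at NCAPD2, HNRNPM, EMP3 and ERO1A. At ITGA3, an integrin gene, they were 0.38 and -1.15 against 0.03 and -0.69.

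CDH2, the gene of N-cadherin, had higher folds ahead of the gene and more tested clusters inside it in both TGFβ1 libraries. A place 680 nt ahead of its start (chr18:28177746-28177931, minus strand) had -0.84 and 0.11 in control on the log2 fold scale, and 1.97 and 1.81 in TGFβ1. The −log10 p was 8.92 and 8.5 in the TGFβ1 libraries, and the fold limit was not reached. The 693 nt around it held 1 and 2 outside clusters in control against 4 and 5. CDH2 itself had 9 and 6 tested clusters in control and 33 and 40 in TGFβ1. As a share of the tested clusters of each library these were 0.0176% and 0.0150% against 0.106% and 0.0733%. This gene was singled out after its values were seen.

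Many outside clusters lay in long stretches, some of which had clusters in the control libraries alone. Clusters were joined into stretches where they lay at most 5 kb apart on 1 strand, a step added after the data were seen. Of 505 stretches, 286 were 1 cluster alone, and 63 held at least 5 clusters, together 614 clusters or 47.2% of the outside clusters. Of these 63, 31 had clusters in all 4 libraries. A further 16 had clusters in both control libraries and in no TGFβ1 library, and 0 had the opposite pattern. The 16 held 130 clusters of control replicate 1 and 55 of replicate 2, and 0 of them were enriched. At any size, 50 stretches were found in both control libraries alone and 16 in both TGFβ1 libraries alone. Control replicates held 555 and 276 outside clusters and TGFβ1 replicates 155 and 315, and a minimum of 5 clusters favours the fuller libraries. Stretches inside genes were not counted, so these numbers have no share over all tested clusters beside them.

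The fullest control-only stretches lay on chromosomes 16, 6 and 4. On chromosome 16, plus strand, 29133023 to 29159356 held 22 and 4 clusters of control replicates 1 and 2, and 29166213 to 29207066 held 25 and 5. They lie in the gap between LOC124903671 and the lncRNA LOC101928188, both on the opposite strand. Ahead of SNX9, a gene of endocytosis, chr6:157767883-157778573 held 12 and 11, on the strand of the gene and 44704 nt from it. On chromosome 4, minus strand, 3 neighbouring stretches between 177073830 and 177145940 held 12 and 8, 7 and 7, and 3 and 2 clusters. Their nearest gene was RN7SKP136, a pseudogene of 7SK RNA, with no tested cluster of its own. Control replicate 1 held most clusters of the chromosome 16 stretches, whereas both replicates were close on chromosomes 6 and 4.

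Some control-only stretches followed the 3′ ends of genes that themselves had fewer tested clusters in TGFβ1. Past TPCN2, a lysosomal channel gene, 8 and 3 control clusters lay over 8.9 kb, and the gene had 14 and 6 clusters in control and 0 and 2 in TGFβ1. Past SOCS5, a cytokine signalling suppressor, there were 5 and 3 over 5.8 kb, and the gene had 20 and 17 against 1 and 4. Past DAB2, an endocytic adaptor gene, there were 3 and 3, and the gene had 70 and 53 against 17 and 27. SNX9, whose stretch lay ahead of the gene and not past its end, had 32 and 17 against 4 and 10. BNIP3L, a mitophagy receptor gene, did not share this, with 4 and 1 control clusters past its end and 10 and 9 against 12 and 12 inside. Nor did HEXA, a lysosomal enzyme gene, with 5 and 1 past its end and 9 and 7 against 5 and 13 inside. As a share of the tested clusters of each library, DAB2 held 0.137% and 0.133% in control against 0.0546% and 0.0495% in TGFβ1, and SNX9 0.0624% and 0.0426% against 0.0128% and 0.0183%. The nuclear lncRNA NEAT1 held 0.337% and 0.354% against 0.305% and 0.156%. MALAT1, another nuclear lncRNA, held 0.129% and 0.148% against 0.128% and 0.0917%, so replicate 1 of both conditions was nearly equal there. The part of these differences in the stretches was not tested. Counts of tested clusters are not RNA levels and were not compared with them, so what lies behind the lower counts was not tested. Bulk libraries also cannot tell fewer cells with an RNA from less of it per cell.

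**Figure D5:**
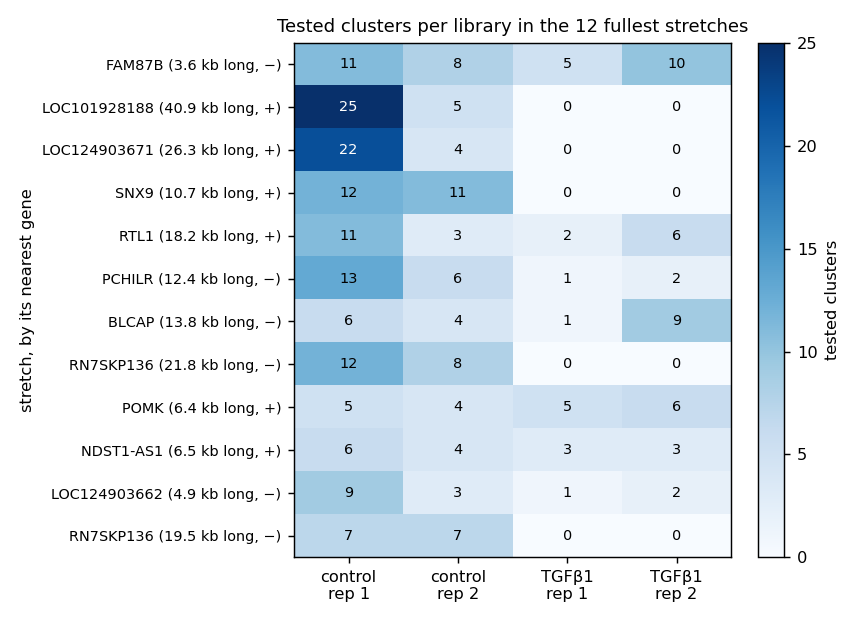
Number of tested outside clusters per library (columns) in the 12 stretches with the most clusters (rows, named by the nearest gene, with length and strand); darker cells hold more. Rows near LOC101928188, LOC124903671, SNX9 and RN7SKP136 (2 rows) are at 0 in both TGFβ1 libraries, while those near FAM87B and POMK have clusters in all 4.

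Stretches found in all 4 libraries included one on chromosome 1 near FAM87B (819922 to 823563, minus strand), with 11 and 8 clusters in control and 5 and 10 in TGFβ1. Around the POMK place, 6.4 kb of the plus strand held 5 and 4 against 5 and 6. On chromosome 14, 18.2 kb of the plus strand held 11 and 3 against 2 and 6. It begins at 100861322 and ends near RTL1, a gene on the opposite strand in an imprinted region known for its many noncoding RNAs. Past BLCAP on chromosome 20, 13.8 kb held 6 and 4 against 1 and 9. The highest log2 fold in the chromosome 14 and BLCAP stretches was 2.31 and 2.05. The ranges of control and TGFβ1 counts overlapped at FAM87B, RTL1 and BLCAP and met at 5 at POMK. The others of the 12 fullest stretches with clusters in all 4 libraries had more in both control libraries. Counts were 13 and 6 against 1 and 2 near PCHILR, 9 and 3 against 1 and 2 near LOC124903662, and 6 and 4 against 3 and 3 near NDST1-AS1. The smaller CDH2 stretch described above went the other way, and the remaining ones were not compared.

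Of 15 genes looked up for an outside cluster within 5 kb, matrix and contractile genes of stellate cells with NEAT1, MALAT1 and LARP6, 2 had one in any library (13.3%). Of all 59716 genes 604 had one (1.01%), and of the 11232 genes with a tested cluster inside them 379 (3.37%). None of the clusters beside the 15 genes was enriched. The 13 without one include COL1A2, COL3A1, COL5A1, FN1, SPARC, ACTA2, NEAT1, MALAT1 and LARP6. COL1A1 had 3 such clusters, with a highest log2 fold of 0.89, beside 95 to 195 tested clusters inside the gene per library. COL6A3 had 2, both 5′ of the gene in TGFβ1 libraries, with a highest fold of 1.43. COL3A1 had 118 to 153 clusters inside the gene and COL1A2 146 to 193.

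Markers of the labelled cell type were present. All 10 stellate cell or myofibroblast markers had tested clusters in each library, 478 to 708 in sum. None of 6 hepatocyte and 4 endothelial markers had one, 1 of 4 macrophage markers did (CD68, with 2 to 4 clusters), and 1 of 3 cholangiocyte markers did (KRT7, with 1 and 2 in control and 13 and 17 in TGFβ1).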

How the data were processed

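LARP6 eCLIP libraries of 2 conditions were compared, with 2 replicates each. UMI-tools, cutadapt and STAR on GRCh38 are named in the submitters' processing notes, without order or version. The peak caller, the treatment of multi-mapped reads and the rule for reproducible peaks are each not given in the sources used here. Deposited log2 values were read as the authors' fold of a region over matched input. The deposited −log10 values were read as the authors' −log10 p, with a cap of 400. The files have no header, so both readings rest on the range of the values. At 4 of 7 control and 10 of 15 TGFβ1 outside regions of the reproducible lists, the listed fold was the mean of overlapping clusters of both libraries, within 0.001. Over all listed regions this held for 32.1% and 28.1%.

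Gene bounds were those of 59716 RefSeq genes (GRCh38.p14), all biotypes. The 76 genes without a chromosome in the table were not used. A region was outside where its midpoint lay in no gene. Gene strand came from the promoter table, or from at least 3 clusters lying in that gene alone with at least 80% on 1 strand. Both sources gave the same strand for 99.3% of 5326 genes. Coordinates are 1-based.

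Fold and p limits were 3, and clusters were merged into places at up to 20 nt and into stretches at up to 5 kb. Library values were compared by exact permutation. The members, gene lists and limits were chosen with earlier results of these data known. Named places were all listed places, the 8 others enriched in the most libraries (ties by mean fold) and the 4 lowest among those in all 4 libraries. PTPN14, NCAPD2, HNRNPM, EMP3, ERO1A, ITGA3, CDH2, the stretches and their neighbour genes were chosen after their values were seen. On simulated positions, 1000 of 1000 midpoints, 200 of 200 nearest genes and 300 of 300 places were recovered. Software was SciPy 1.17.1, pandas 2.3.3, NumPy 2.4.6 and matplotlib 3.10.9 under Python 3.11.15.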

Additional observations from a re-analysis of the deposited data

How the results depend on the processing

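Of 73 alternatives, 68 were set with the design and 5 added after seeing the data. A log2 fold limit of 4 left 4 places enriched in at least 2 libraries, in place of 8, and 8 outside regions in the TGFβ1 reproducible list, in place of 15. Counting only clusters more than 1 kb from every gene left 3 outside regions in the control list, 16 places tested in all 4 libraries and 5 places enriched in at least 2. For the clusters more than 1 kb away, the TGFβ1 minus control difference in the enriched share was 8.24 points, in place of 5.01. At the fold limit of 4 it was 2.96, and the enriched share outside minus inside genes was 1.5 in place of 3.10 (exact sign-flip permutation test, p = 0.25). With places as the unit they were 2.72 and 1.65. The enriched share outside minus inside genes was -1.21 points without the listed places, an alternative added later that drops enriched clusters on the outside alone, which by construction lowers that share and supports nothing. With 1 library left out in turn, the TGFβ1 minus control difference ranged from -0.54 to -0.15 points for the share outside genes, from 3.29 to 6.74 for the enriched share, and from 15.8 to 18.3 for the share within 5 kb. The enriched share outside minus inside genes ranged from 2.44 to 4.12 points. Places tested in all remaining libraries numbered 31 to 38 and places enriched in at least 2 numbered 4 to 8, with 4 without TGFβ1 replicate 2. With the replicate number as a block, the difference in the share outside genes was -0.35 points (exact sign-flip permutation test, p = 0.5). Nothing in the labels ties samples of the same number together. The lists hold no counts, so what depth limits cannot be computed.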

Other observations

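Many outside clusters carried the same deposited fold. The most frequent log2 fold of each library was 0.38 and 0.85 in control replicates 1 and 2 and 1.20 and 1.31 in TGFβ1 replicates 1 and 2. It was the value of 43.4%, 38.4%, 27.7% and 21.6% of outside clusters, against 28.6%, 24.99%, 19.6% and 15.3% of clusters inside genes. A log2 fold of 0 or less was rarer outside genes, at 14.8%, 18.5%, 11.0% and 9.21%, against 26.9%, 26.4%, 19.1% and 21.1% inside. Median widths were 51, 46, 42 and 43 nt outside and 49, 47, 49 and 47 nt inside. A further 7, 3, 5 and 11 outside clusters passed the fold limit and not the p limit.

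A few outside places had clusters in both TGFβ1 libraries and in neither control library, 15 in all, beside 40 with the opposite pattern. They include places just ahead of COL6A3 (log2 folds 1.43 and 1.05), NT5E (1.20 and 2.05), which encodes the ecto-enzyme CD73, and SEC11A (1.94 and 2.05), a subunit of the signal peptidase. None of these 3 was enriched, and they were picked after their values were seen. Clusters with their midpoint inside a gene were not counted, so control clusters may still cross the same bases, as at GFPT1 above. That was not checked for these places. The libraries also differed in outside places, with 539 and 264 in control and 137 and 269 in TGFβ1.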
